A study of Rattus norvegicus with 16 samples.

Results

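The diet comparison in dystrophin-mutant muscle rests on 12 of the 16 sequenced libraries, chosen by their labels. Of these, 6 are from Dmd rats fed MCTKD from weaning (DMD_KD, replicates 1, 3, 5, 7, 9 and 10) and 6 from Dmd rats fed the normal diet over the same time (DMD_ND, replicates 3, 5, 6, 7, 9 and 11). The remaining 4 libraries, WT_ND, come from wild-type rats that ate the normal diet, and serve here for levels and for the shared estimate of the spread. All rats had the Wistar-Imamichi background, the diets ran to an age of 9 months, and poly-A RNA came from the tibialis anterior, a fast muscle of the lower leg. The labels give the mutant genotype as Dmd without the allele, do not spell out MCTKD, and do not say whether each library is a separate animal, so p-values measure the spread between these libraries, which may be technical. MCTKD is taken here to be a ketogenic diet. Values are FPKM as deposited, which are fragments per kilobase of gene scaled for library size. Of 31141 genes in the table, 12119 had at least 1 FPKM in at least 4 of the 16 libraries and were tested.

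A ketogenic diet is rich in fat and poor in carbohydrate, so the body burns fatty acids and makes ketone bodies in the liver from them. In a muscle fibre, fatty acids are bound by carrier proteins, joined to coenzyme A, moved into mitochondria as carnitine esters when long, and cut into acetyl groups by beta-oxidation. Medium-chain fatty acids can enter mitochondria without the carnitine route. Fatty acids also bind the PPAR nuclear receptors, which switch on genes of fat use. Dystrophin-deficient muscle degenerates and regenerates, and holds macrophages, connective tissue and fat between its fibres.

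Depth was similar in the diet groups, between 17125084 and 28116085 reads assigned to genes per library. The libraries held muscle RNA, with the skeletal actin gene Acta1 between 10940 and 49480 FPKM in the mutant libraries. Dmd itself lay between 0.546 and 2.04 FPKM (median 1.47) in DMD_KD, between 1.37 and 1.98 FPKM (median 1.81) in DMD_ND and between 4.13 and 11.9 FPKM in WT_ND, so every mutant library was below every wild-type library. Mitochondrial genes took 15.6 ± 1.004% of reads (SD, n = 6) in DMD_KD and 13.1 ± 0.777% (n = 6) in DMD_ND (exact two-sided permutation p = 0.00216, the smallest that 6 against 6 libraries can give, adjusted p = 0.00433 over 4 library measures), and the ranges did not overlap. The 10 most abundant genes took 24.0 ± 2.89% and 19.8 ± 1.19% of reads (same exact permutation p). DMD_KD replicate 3 stood apart: it was the highest or the lowest of its group in 74.1% of tested genes, where the other DMD_KD libraries were so in 21.0 to 36.6%, and its 10 most abundant genes took 29.6% of reads against 21.4 to 24.0%. Results are therefore given with and without that library.

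A single gene passed the test for diet. Fabp3, which encodes the fatty acid carrier of muscle and heart, rose on MCTKD and is 1 of 12119 genes tested, or 0.00825% (limma, Benjamini-Hochberg adjusted p under 0.05). The same gene, and no other, was called without DMD_KD replicate 3. At an unadjusted p under 0.05 stood 806 genes on the higher side (6.65% of those tested) and 921 on the lower side (7.60%), and without DMD_KD replicate 3 there were 653 (5.39%) and 749 (6.18%). The diet groups did not overlap in a small set of genes, with DMD_KD above in 102 (0.842%) and below in 77 (0.635%), and without DMD_KD replicate 3 these shares were 1.16% and 0.908%. A positive log2 fold change was found for 48.9% of tested genes. Each list's counts below stand against these shares, and a count near them shows nothing particular to the list. In RNA from whole muscle, fewer cells of a type and less RNA per cell cannot be told apart. Most differences were small: 42 genes differed more than 2-fold on the log2(FPKM + 1) scale, 9 higher and 33 lower, and 90% of genes lay between -0.41 and 0.36. The median standard error of a log2 fold change was 0.13, and the 95% interval stayed within 2-fold either way for 95.6% of genes. Scaling each library to an equal total (TPM) in place of the deposited scaling shifted the median gene by -0.22. The genes at an unadjusted p under 0.05 then split into 147 higher and 3085 lower. Without DMD_KD replicate 3 that shift was -0.13 and the split was 182 higher and 2057 lower. The TPM values of the lists below include that library. With estimated weights per library, in which DMD_KD replicate 3 received 0.129, limma called 93 genes (0.767%), 51 higher (0.421%) and 42 lower (0.347%). Among them were 6 of 15 core beta-oxidation genes, 4 of 23 auxiliary and peroxisomal genes, 3 of 16 PPAR targets, 3 of 20 cytokines and chemokines, 2 of 21 interferon response genes and none of the TCA cycle, respiratory chain or matrix lists.

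Fabp3 (ENSRNOG00000012879, chromosome 5, 142651956 to 142658718 in mRatBN7.2) stood at 199, 294, 222, 233, 179 and 191 FPKM in DMD_KD replicates 1, 3, 5, 7, 9 and 10. In DMD_ND replicates 3, 5, 6, 7, 9 and 11 it stood at 106, 117, 111, 99.0, 92.1 and 97.0 FPKM. The lowest DMD_KD library was thus above the highest DMD_ND library, and the highest of all mutant libraries was DMD_KD replicate 3. The rise was a log2 fold change of 1.06 (SE 0.14, 95% interval 0.77 to 1.36, limma adjusted p = 0.00772), and without DMD_KD replicate 3 it was 0.98 (adjusted p = 0.00607). WT_ND libraries lay between 332.5 and 545.3 FPKM.

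The bases upstream of 5 genes of the fat use, interferon and chemokine lists are printed here to show sites of the kind known to control such genes. They are the 250 bases before the start site in RefSeq's GRCr8 tables, a later build than the deposited mRatBN7.2, given 5′ to 3′ on the gene's strand. Capitals mark GAAANNGAAA or its reverse complement TTTCNNTTTC, the core of the interferon-stimulated response element, in Ifit3, Irf7 and Cxcl10. In Fabp3 and Plin5 they mark AGGTCA or TGACCT, the single site that PPAR and other nuclear receptors bind, which occurs 1 time in Plin5 and is not in these letters of Fabp3. Plin5 also holds GAAANNGAAA, left in lower case.
Fabp3 (chr5:147935875-147936124, plus strand): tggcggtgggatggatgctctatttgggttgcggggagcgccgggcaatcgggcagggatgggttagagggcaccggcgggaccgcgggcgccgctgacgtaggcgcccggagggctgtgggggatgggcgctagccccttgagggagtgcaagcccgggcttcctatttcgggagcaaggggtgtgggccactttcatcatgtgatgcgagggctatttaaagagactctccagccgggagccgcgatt
Plin5 (chr9:1033285-1033534, minus strand): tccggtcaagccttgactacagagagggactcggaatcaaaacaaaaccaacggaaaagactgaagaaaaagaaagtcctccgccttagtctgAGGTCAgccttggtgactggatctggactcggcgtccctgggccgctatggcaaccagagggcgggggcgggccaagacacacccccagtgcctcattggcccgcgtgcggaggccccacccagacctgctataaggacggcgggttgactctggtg
Ifit3 (chr1:241527076-241527325, plus strand): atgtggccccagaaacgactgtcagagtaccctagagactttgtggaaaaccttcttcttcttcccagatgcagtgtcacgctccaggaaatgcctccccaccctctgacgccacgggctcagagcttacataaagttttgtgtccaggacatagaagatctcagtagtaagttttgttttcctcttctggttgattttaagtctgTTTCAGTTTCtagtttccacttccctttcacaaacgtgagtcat
Irf7 (chr1:205800024-205800273, minus strand): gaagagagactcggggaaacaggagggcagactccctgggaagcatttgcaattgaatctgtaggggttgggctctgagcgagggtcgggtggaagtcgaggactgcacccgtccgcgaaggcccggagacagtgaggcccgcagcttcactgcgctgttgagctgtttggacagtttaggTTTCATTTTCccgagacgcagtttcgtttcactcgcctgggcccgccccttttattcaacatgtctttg
Cxcl10 (chr14:15988816-15989065, plus strand): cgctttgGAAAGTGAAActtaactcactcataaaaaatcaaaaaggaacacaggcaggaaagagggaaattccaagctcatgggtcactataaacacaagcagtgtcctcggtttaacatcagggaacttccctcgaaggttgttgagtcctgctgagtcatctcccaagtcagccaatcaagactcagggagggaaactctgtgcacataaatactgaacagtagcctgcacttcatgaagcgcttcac
Over the whole window of 300 bases, which reaches 50 bases past the start site, GAAANNGAAA on either strand was found in 11 of the 15 interferon response genes with an entry (73.3%), in 1 of 15 cytokine and chemokine genes (6.67%), in 1 of 13 PPAR targets (7.69%) and in 3.77% of all 27457 genes in the table. It begins 44 bases before the start site in Ifit3, 69 in Irf7 and 243 in Cxcl10. AGGTCA on either strand was found in 4 of 13 core beta-oxidation genes (30.8%), in 6 of 19 auxiliary and peroxisomal genes (31.6%), in 2 of 13 PPAR targets (15.4%), in 1 of 14 activation and carnitine genes (7.14%), in 1 of 6 uptake genes (16.7%) and in 15.7% of all genes. The direct repeat AGGNCANAGGNCA, the full PPAR element, was in none of the genes of these 7 lists with an entry, and in 0.412% of all genes. A match describes letters in this window and not binding.

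**Figure D1:**
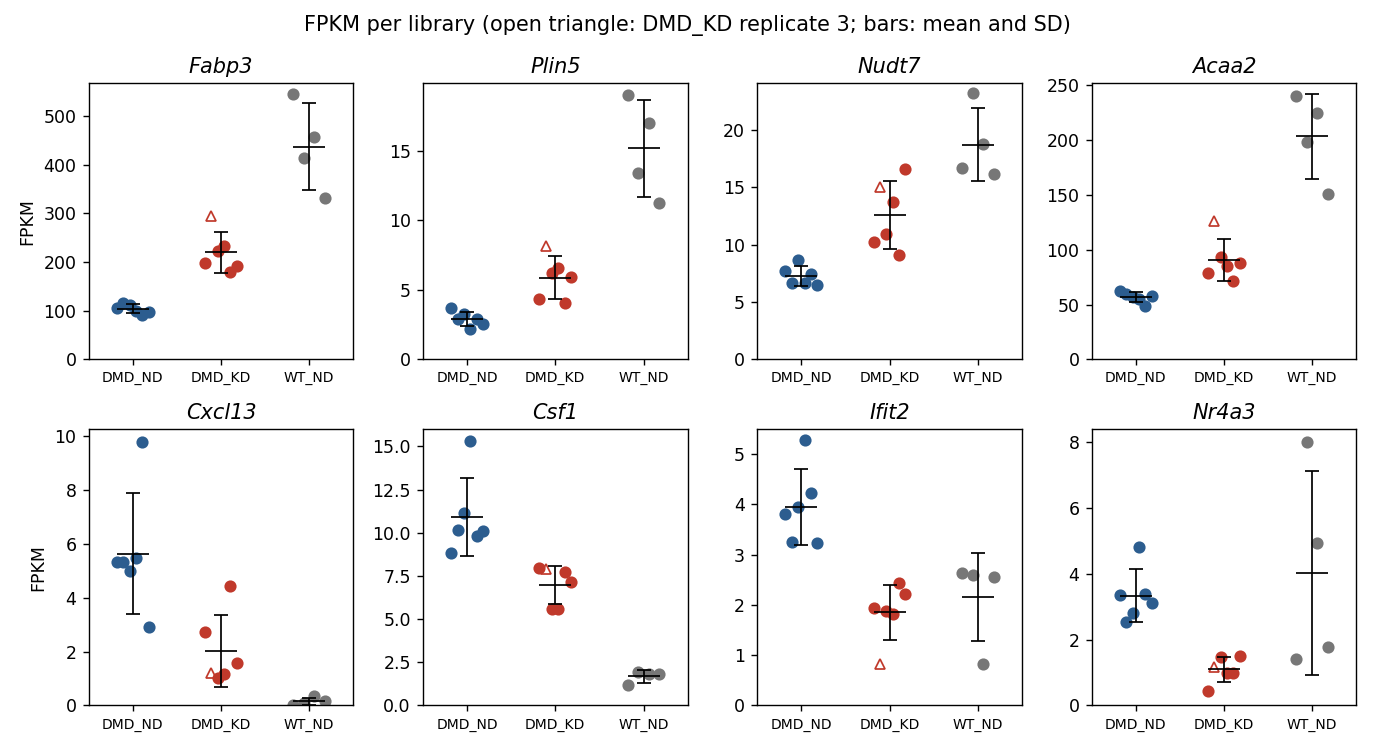
FPKM (linear axis from 0) in each library of DMD_ND, DMD_KD and WT_ND for 8 genes, with the mean and SD of each group as bars and DMD_KD replicate 3 as an open triangle. Fabp3, Plin5, Nudt7 and Acaa2 had every DMD_KD library above every DMD_ND library, Csf1, Ifit2 and Nr4a3 every one below, and Cxcl13 overlapped.

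Genes that bring fatty acids into the fibre, other than Fabp3, did not pass the test. Of 9 tested genes of uptake and binding, 4 were higher and 1 lower at an unadjusted p under 0.05, and the list's median log2 fold change was 0.25 (0.25 without DMD_KD replicate 3, and 0.00 with TPM scaling, which is above the shift of the median gene). Gpihbp1 lay between 5.34 and 10.1 FPKM (median 7.08) in DMD_KD and between 3.07 and 5.94 FPKM (median 4.296) in DMD_ND. Gpihbp1 anchors lipoprotein lipase on the capillary wall, and its log2 fold change of 0.61 (SE 0.16, adjusted p = 0.15) fell short of the threshold, with the ranges overlapping. Slc27a1 lay between 7.37 and 10.3 FPKM (median 8.21) in DMD_KD and between 5.97 and 7.75 FPKM (median 6.31) in DMD_ND. Slc27a1 is a fatty acid transport protein of the fibre membrane, with a log2 fold change of 0.34 (SE 0.10, adjusted p = 0.21). Its relative Slc27a6 was at a low level on the other side, between 0.144 and 1.06 FPKM (median 0.634) in DMD_KD and between 0.688 and 2.02 FPKM (median 1.501) in DMD_ND.

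Coats of the lipid droplet, where fibres store triglyceride, did not pass the test, and Plin5 had the smallest p among them. Of 16 droplet proteins and lipases, 4 were higher and none lower at an unadjusted p under 0.05, with a median of 0.08, and -0.17 with TPM scaling. Plin5 lay between 4.07 and 8.17 FPKM (median 6.08) in DMD_KD and between 2.17 and 3.66 FPKM (median 2.89) in DMD_ND. Plin5 ties droplets to mitochondria in oxidative tissue, and its groups did not overlap, with a log2 fold change of 0.80 (SE 0.15, adjusted p = 0.132). Plin4 lay between 30.1 and 58.1 FPKM (median 45.2) in DMD_KD and between 24.6 and 33.5 FPKM (median 28.2) in DMD_ND. Plin4, another droplet coat, had a log2 fold change of 0.59 (SE 0.14, adjusted p = 0.14), with DMD_KD replicate 3 not its highest library. The lipases of stored fat showed smaller differences. Pnpla2, which releases the first fatty acid of a triglyceride, differed by a log2 fold change of 0.39 (SE 0.14, adjusted p = 0.257), and Mgll, which releases the last, by 0.29 (SE 0.13, adjusted p = 0.312) and by 0.20 without DMD_KD replicate 3, its highest library.

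Among genes of activation to acyl-CoA and of the carnitine shuttle, none passed the test and several had diet groups that did not overlap. Of 17 tested members, 8 were higher and none lower at an unadjusted p under 0.05, and 4 did not overlap between the diets. The list's median was 0.26 (0.23 without DMD_KD replicate 3) and 0.00 with TPM scaling. Slc25a42 lay between 12.5 and 17.9 FPKM (median 15.6) in DMD_KD and between 7.57 and 10.9 FPKM (median 9.74) in DMD_ND. This gene encodes the carrier that brings coenzyme A into the mitochondrion, and its log2 fold change of 0.64 (SE 0.11, adjusted p = 0.132) had the second smallest p of all genes. Crat lay between 86.3 and 200.7 FPKM (median 96.1) in DMD_KD and between 51.3 and 78.04 FPKM (median 72) in DMD_ND. Crat, carnitine acetyltransferase, moves acetyl groups onto carnitine, and its log2 fold change of 0.66 became 0.48 without DMD_KD replicate 3, its highest library. Cpt2, which frees acyl-CoA on the inner side of the mitochondrial membrane, lay between 25.7 and 45.5 FPKM (median 27.96) in DMD_KD and between 16.1 and 22.4 FPKM (median 20.8) in DMD_ND, with a log2 fold change of 0.55 (SE 0.15, adjusted p = 0.156). Acss1, which activates acetate in mitochondria, had a log2 fold change of 0.49 (SE 0.13, adjusted p = 0.14).

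Genes of core mitochondrial beta-oxidation were higher on MCTKD as a list, with no member past the test. All 15 tested members had a positive log2 fold change, 9 of them at an unadjusted p under 0.05 and 6 without overlap between the diets (48.9%, 6.65% and 0.842% of all tested genes). Their median was 0.40 (0.35 without DMD_KD replicate 3) and 0.15 with TPM scaling. The median of the list in each library, relative to the DMD_ND mean, ran from 0.21 to 0.71 in DMD_KD and from -0.17 to 0.14 in DMD_ND, so the groups were apart, also without DMD_KD replicate 3, the highest. Acaa2 lay between 71.3 and 125.9 FPKM (median 86.4) in DMD_KD and between 48.7 and 62.7 FPKM (median 57.7) in DMD_ND. Acaa2, the thiolase of the last step, had a log2 fold change of 0.64 (SE 0.14, adjusted p = 0.14). Hadha, a subunit of the trifunctional protein for long chains, lay between 96.6 and 134.9 FPKM (median 122.6) in DMD_KD and between 67.7 and 89.7 FPKM (median 85.3) in DMD_ND, with a log2 fold change of 0.51 (SE 0.13, adjusted p = 0.14). Hadh, the dehydrogenase for short and medium 3-hydroxyacyl-CoA, lay between 48.7 and 68.8 FPKM (median 54.4) and between 35.9 and 42.7 FPKM (median 39.6), with a log2 fold change of 0.51 (SE 0.11, adjusted p = 0.14). Acadl, the long-chain acyl-CoA dehydrogenase, had a log2 fold change of 0.47 (SE 0.11, adjusted p = 0.14), and there DMD_KD replicate 3 was among the lowest of its group. The share of mitochondrial reads was also higher in DMD_KD, and its part in these differences was not tested.

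The list of genes for unsaturated chains, peroxisomal fat oxidation and the handling of coenzyme A had no member past the test. Of 23 tested members, 11 were higher and none lower at an unadjusted p under 0.05, 8 did not overlap, and the median was 0.21 (0.13 without DMD_KD replicate 3) and -0.04 with TPM scaling, above the shift of the median gene. Nudt7 lay between 9.11 and 16.6 FPKM (median 12.3) in DMD_KD and between 6.44 and 8.63 FPKM (median 7.06) in DMD_ND. Nudt7, which breaks down coenzyme A in peroxisomes, had a log2 fold change of 0.70 (SE 0.13, adjusted p = 0.132). Eci2, an enoyl-CoA isomerase for unsaturated chains, lay between 24.9 and 31.8 FPKM (median 28.8) in DMD_KD and between 18.4 and 21.2 FPKM (median 20.8) in DMD_ND, with a log2 fold change of 0.46 (SE 0.09, adjusted p = 0.132). Mlycd lay between 18.6 and 43.5 FPKM (median 30.3) in DMD_KD and between 15.1 and 19.2 FPKM (median 18.99) in DMD_ND. Mlycd removes malonyl-CoA, the inhibitor of carnitine entry, and its log2 fold change was 0.73 (SE 0.15, adjusted p = 0.14), with DMD_KD replicate 9 inside the DMD_ND range. Acot2, a mitochondrial acyl-CoA thioesterase with close gene copies, whose reads may be shared, had a log2 fold change of 0.44 (SE 0.09, adjusted p = 0.14). Outside any list, Vwa8, a mitochondrial ATPase, had a log2 fold change of 0.56 (SE 0.10, adjusted p = 0.132) and Tmem63b, a membrane channel, 0.45 (SE 0.09, adjusted p = 0.14).

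**Figure D2:**
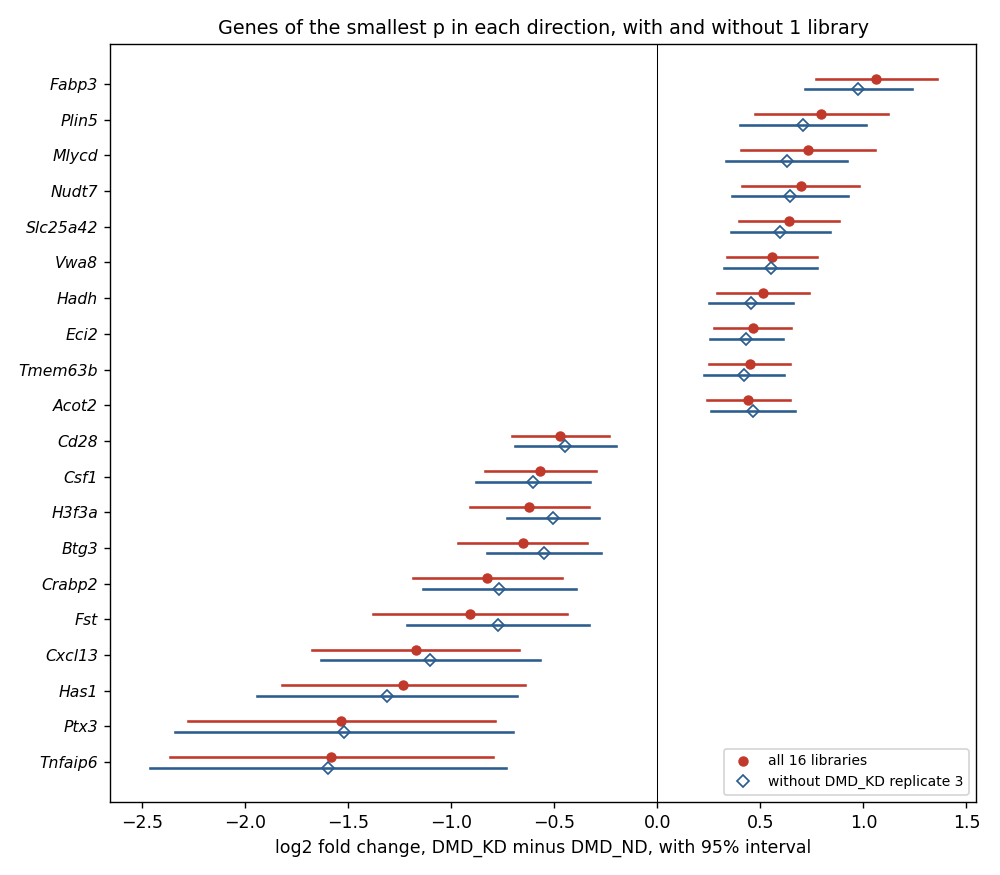
Log2 fold changes of DMD_KD against DMD_ND with their 95% intervals for Fabp3, the other 9 genes of the smallest p on the higher side and the 10 on the lower side among genes with a symbol and at least 5 FPKM in the higher diet group, with all 16 libraries (red) and without DMD_KD replicate 3 (blue). The direction of each of the 20 genes was the same in both fits. H3f3a has near-identical copies, and its value is uncertain.

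Among known targets of the PPAR receptors, Fabp3 alone passed the test. Of 16 tested, 9 were higher and none lower at an unadjusted p under 0.05, with a median of 0.41 (0.40 without DMD_KD replicate 3, 0.16 with TPM scaling), and 4 did not overlap. The list's median per library ran from 0.12 to 0.72 in DMD_KD and from -0.09 to 0.10 in DMD_ND. Members of this list also stand in the fat lists above. Pdk4, Angptl4 and Ucp3, 3 targets known for their induction by fasting, were picked for naming after their values were seen. Pdk4, which shuts carbohydrate out of the mitochondrion, lay between 43.3 and 329.9 FPKM (median 130) in DMD_KD and between 90.6 and 194.2 FPKM (median 115.4) in DMD_ND, with a log2 fold change of 0.10. The direction of Pdk4 turned with TPM scaling or when DMD_KD replicate 7 or 10 was left out. Angptl4, an inhibitor of lipoprotein lipase, had a log2 fold change of 0.26 (SE 0.38, adjusted p = 0.754) and turned without DMD_ND replicate 5, and the uncoupling protein Ucp3 0.25 (SE 0.19, adjusted p = 0.506) and turned with TPM scaling. Their DMD_KD and DMD_ND ranges overlapped, and the intervals of these genes are wide, from -0.77 to 0.97 for Pdk4 and from -0.55 to 1.06 for Angptl4.

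Receptors and co-regulators did not pass the test. Of 22 PPAR and PGC-1 regulators, 5 were higher and none lower at an unadjusted p under 0.05 (2 and none without DMD_KD replicate 3), with a median of 0.16, and -0.06 with TPM scaling. Ppara, the receptor subtype of oxidative tissue, lay between 1.36 and 1.98 FPKM (median 1.58) in DMD_KD, between 0.776 and 1.66 FPKM (median 1.17) in DMD_ND and between 4.76 and 6.93 FPKM in WT_ND, with a log2 fold change of 0.27 (SE 0.10, adjusted p = 0.264). Its partner Rxra differed by a log2 fold change of 0.44, and by 0.29 without DMD_KD replicate 3, which was far above the other libraries. Lpin1, a co-activator and triglyceride enzyme, had a log2 fold change of 0.46 (SE 0.20, adjusted p = 0.306), and the co-repressor Ncor1 0.28 (SE 0.10, adjusted p = 0.256).

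Genes of ketone body use did not pass the test. Of 12 tested genes of ketone body and monocarboxylate handling, 1 was higher and 1 lower at an unadjusted p under 0.05. Both counts are near the shares of all genes (6.65% and 7.60%). The list's median was 0.09 (0.14 without DMD_KD replicate 3, -0.11 with TPM scaling). Oxct1, the enzyme that commits ketone bodies to oxidation, and picked for naming after its values were seen, as was Bdh1, lay between 27.7 and 59.4 FPKM (median 44.6) in DMD_KD and between 37.9 and 49.96 FPKM (median 41.99) in DMD_ND. Its log2 fold change of -0.02 has a 95% interval from -0.38 to 0.35, and without DMD_KD replicate 3, the lowest library, it was 0.10. Bdh1, which oxidises 3-hydroxybutyrate, had a log2 fold change of 0.08 (SE 0.16, adjusted p = 0.816) and turned with TPM scaling. Acat1, a thiolase of ketone use, had a log2 fold change of 0.27 (SE 0.13, adjusted p = 0.365). Emb, an escort of lactate transporters, had a log2 fold change of -0.49 (SE 0.16, adjusted p = 0.232), and the lactate exporter Slc16a3 had a log2 fold change of 0.54 (SE 0.27, adjusted p = 0.365) with its highest library in DMD_KD replicate 3.

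Genes of the TCA cycle and the respiratory chain had positive medians, with no member past the test and the highest list medians in DMD_KD replicate 3. All 18 TCA cycle genes had a positive log2 fold change, 12 at an unadjusted p under 0.05, with a median of 0.36 (0.30 without DMD_KD replicate 3, 0.09 with TPM scaling), and 2 did not overlap. All 36 nuclear genes of the respiratory chain were positive too, with a median of 0.31, but 0.18 without DMD_KD replicate 3 and 0.04 with TPM scaling, and none was free of overlap. The count of those at an unadjusted p under 0.05 was 14 with that library and 6 without it. In DMD_KD replicate 3 the respiratory chain median was 1.25 above the DMD_ND mean, where the other DMD_KD libraries ran from -0.08 to 0.35. All 13 mitochondrially encoded genes were positive, 9 at an unadjusted p under 0.05 and 6 without overlap, with a median of 0.40 (0.31 without DMD_KD replicate 3, 0.13 with TPM scaling).

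Among the members, citrate synthase (Cs), which starts the cycle, lay between 118.3 and 168.9 FPKM (median 138.9) in DMD_KD and between 92.6 and 120 FPKM (median 111.8) in DMD_ND, with a log2 fold change of 0.36 (SE 0.12, adjusted p = 0.232). Suclg1, of succinyl-CoA ligase, had a log2 fold change of 0.43 (SE 0.14, adjusted p = 0.232) and Idh3g, of isocitrate dehydrogenase, 0.47 (SE 0.15, adjusted p = 0.232). The ATP synthase subunits Atp5f1a and Atp5f1b differed by a log2 fold change of 0.52 and 0.49, and by 0.37 and 0.33 without DMD_KD replicate 3. The mitochondrial gene Mt-co1, of cytochrome oxidase, lay between 24730 and 50110 FPKM (median 29090) in DMD_KD and between 18390 and 22900 FPKM (median 19890) in DMD_ND, without overlap, with a log2 fold change of 0.61 (SE 0.18, adjusted p = 0.21). Mt-cyb had a log2 fold change of 0.59 (SE 0.19, adjusted p = 0.232) and Mt-nd5 0.42 (SE 0.15, adjusted p = 0.241). At the entry of pyruvate, 6 of 16 genes were higher and 1 lower at an unadjusted p under 0.05, with a median of 0.22 and -0.04 with TPM scaling. The lower one, the kinase Pdk3, was between 1.86 and 1.96 FPKM (median 1.92) in DMD_KD and between 2.096 and 3.08 FPKM (median 2.62) in DMD_ND with no overlap (log2 -0.30, SE 0.08, adjusted p = 0.14). Its relative Pdk2 had a log2 fold change of 0.60 (SE 0.22, adjusted p = 0.256), and 0.43 without DMD_KD replicate 3, its highest library. Pdk2 averaged 113.6 FPKM in DMD_KD and 71.7 FPKM in DMD_ND, below Pdk4 (160.4 and 125.1 FPKM).

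**Figure D3:**
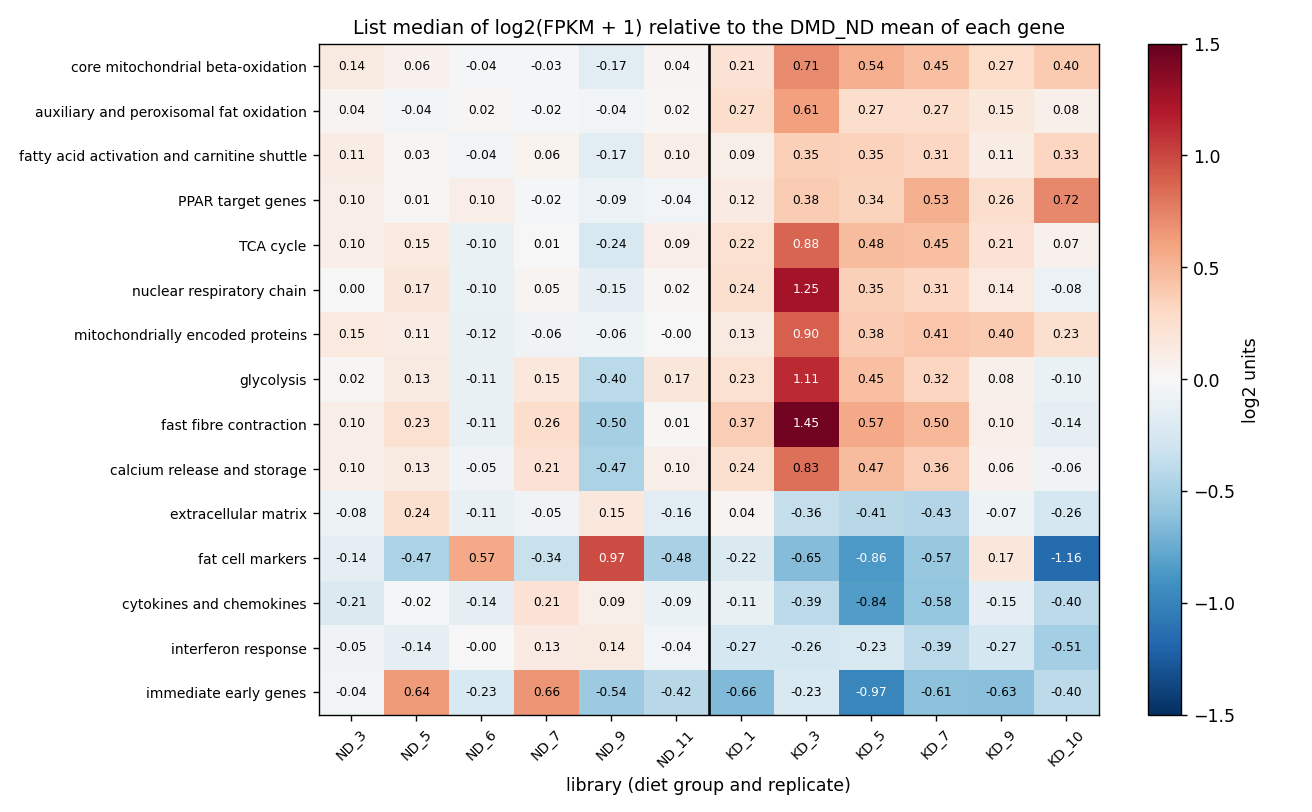
Median over each list's tested members of log2(FPKM + 1) minus the gene's DMD_ND mean, for the 6 DMD_ND libraries (left) and the 6 DMD_KD libraries (right) and 15 lists, with the values printed in the cells. DMD_KD replicate 3 holds the highest values of the muscle and respiratory lists (1.45 for fast fibre contraction, 1.25 for the respiratory chain). It is also highest in core beta-oxidation (0.714) and auxiliary fat oxidation (0.615). These oxidation rows, the PPAR target row and the interferon row separate the diets in every library. The gap is narrow for auxiliary fat oxidation (0.080 in DMD_KD replicate 10, 0.040 in DMD_ND replicate 3) and for PPAR targets (0.121 and 0.102).

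The lists of glycolysis, glycogen turnover, fast fibre contraction and calcium release had positive medians, no member past the test, and their highest library medians in DMD_KD replicate 3. Of 20 glycolysis genes 5 were higher and 1 lower at an unadjusted p under 0.05, and without that library 2 were higher and 4 lower, and the median went from 0.38 to 0.20, with 0.13 under TPM scaling. Of 13 genes of fast fibre contraction all were positive, with 4 at an unadjusted p under 0.05 and a median of 0.47 (0.30 without DMD_KD replicate 3, 0.20 with TPM scaling). Their median in DMD_KD replicate 3 was 1.45, in the other DMD_KD libraries -0.14 to 0.57 and in DMD_ND -0.50 to 0.26. The medians were 0.33 for 17 genes of calcium release and storage and 0.29 for 16 genes of glycogen turnover, and 0.06 and 0.03 with TPM scaling. Fbp2 lay between 74.7 and 126.1 FPKM (median 105) in DMD_KD and between 33.95 and 72.3 FPKM (median 68.8) in DMD_ND. Fbp2, the muscle fructose bisphosphatase of glycogen resynthesis, was apart between the diets with a log2 fold change of 0.72 (SE 0.19, adjusted p = 0.14), and without DMD_KD replicate 3 the value was 0.66. Glycogen phosphorylase (Pygm) differed by a log2 fold change of 0.64, the phosphofructokinase Pfkm by 0.49, the phosphorylase kinase subunit Phka1 by 0.58, the fast myosin-binding protein Mybpc2 by 0.66, the myosin kinase Mylk2 by 0.69, the calcium release channel Ryr1 by 0.50 and the reticulum protein Srl by 0.46, none past the test (adjusted p between 0.257 and 0.305). Without DMD_KD replicate 3 these values were smaller, in the same order 0.45, 0.33, 0.50, 0.50, 0.53, 0.36 and 0.33. The other side held Pfkp, the platelet form of phosphofructokinase (-0.28), and Sln, an inhibitor of the calcium pump (log2 -0.63, SE 0.24, adjusted p = 0.271). Of 14 slow fibre genes, a contraction list with a median of -0.15, 1 was lower and none higher at an unadjusted p under 0.05. That count is near the share of all genes (7.60%).

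Genes for making fat and sterols did not pass the test. Of 17 genes of fatty acid and triglyceride synthesis, 2 were higher and 1 lower at an unadjusted p under 0.05, with a median of -0.18 (-0.42 with TPM scaling). Gpam lay between 10.9 and 16.01 FPKM (median 12.8) in DMD_KD and between 7.16 and 10.2 FPKM (median 9.39) in DMD_ND. Gpam, which starts triglyceride assembly, was apart between the diets with a log2 fold change of 0.44 (SE 0.11, adjusted p = 0.14). Fasn, fatty acid synthase, was between 1.397 and 2.58 FPKM (median 1.701) in DMD_KD and between 2.02 and 3.51 FPKM (median 2.49) in DMD_ND (log2 -0.36, SE 0.14, adjusted p = 0.264), and Acacb, which makes the malonyl-CoA that Mlycd removes, had a log2 fold change of 0.37 (SE 0.13, adjusted p = 0.235). Of 18 cholesterol genes 1 was higher, the squalene synthase Fdft1 (log2 0.34, SE 0.10, adjusted p = 0.204), and 1 lower, the sterol oxidase Msmo1 (log2 -0.32, SE 0.10, adjusted p = 0.215). Both cholesterol counts are near the shares of all genes (6.65% and 7.60%). Of 19 genes of insulin and growth signalling 3 were higher (list median 0.15, and -0.12 with TPM scaling), among them the kinase Mtor (log2 0.31, SE 0.10, adjusted p = 0.235, no overlap). Of 19 genes of branched-chain amino acid breakdown 2 were higher (list median 0.14, and -0.10 with TPM scaling), among them Pccb, of propionyl-CoA carboxylase (log2 0.42, SE 0.16, adjusted p = 0.263).

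**Figure D4:**
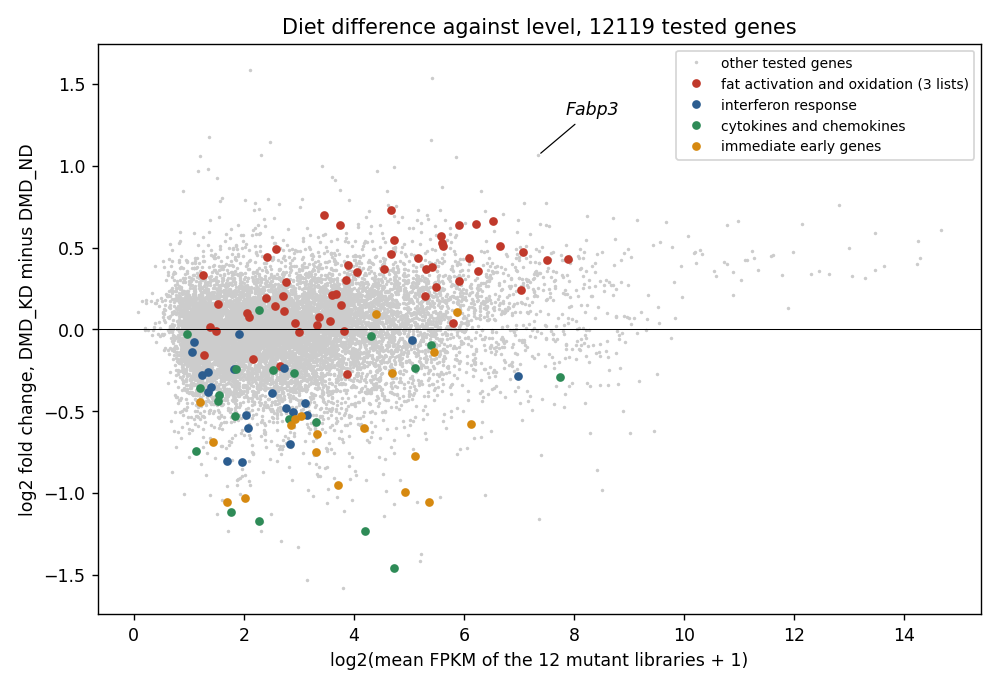
Log2 fold change of DMD_KD against DMD_ND for each of 12119 tested genes against the mean level of the 12 mutant libraries on the log2(FPKM + 1) scale, with members of the fat activation and oxidation lists in red, interferon response in blue, cytokines and chemokines in green and immediate early genes in orange. Red points lie mostly above 0 and blue, green and orange points mostly below. Fabp3 is named.

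On the lower side no gene passed the test (limma; 921 genes at an unadjusted p under 0.05, 42 with library weights), and signals that call in immune cells were among the genes of smallest p. Of 20 cytokine and chemokine genes 10 were lower and none higher at an unadjusted p under 0.05 (7.60% of all genes were), with a median of -0.38 (-0.36 without DMD_KD replicate 3, -0.58 with TPM scaling), and 1 did not overlap. Cxcl13 lay between 1.03 and 4.44 FPKM (median 1.39) in DMD_KD and between 2.93 and 9.76 FPKM (median 5.32) in DMD_ND. Cxcl13, which attracts B cells, had the smallest p on this side among genes with a symbol and at least 5 FPKM in the higher diet group, with a log2 fold change of -1.17 (SE 0.24, adjusted p = 0.14), and overlapped through DMD_KD replicate 9 and DMD_ND replicate 11. Csf1 lay between 5.598 and 7.94 FPKM (median 7.45) in DMD_KD and between 8.85 and 15.3 FPKM (median 10.1) in DMD_ND. Csf1, the growth factor of macrophages, was apart between the diets in every library, with a log2 fold change of -0.57 (SE 0.13, adjusted p = 0.14). Cxcl10, an interferon-induced attractant of T cells, lay between 0.306 and 1.24 FPKM (median 0.522) in DMD_KD and between 1.09 and 3.16 FPKM (median 1.36) in DMD_ND, with a log2 fold change of -0.75 (SE 0.17, adjusted p = 0.14). Ccl2, the attractant of monocytes, lay between 6.38 and 18.1 FPKM (median 9.38) and between 15.1 and 122.1 FPKM (median 24.2), with a log2 fold change of -1.46 (SE 0.38, adjusted p = 0.14), and its highest value was DMD_ND replicate 7. The summed level of the 21 macrophage markers was 616 to 926 FPKM in DMD_KD and 654 to 1480 in DMD_ND, with none of them at 0 in all mutant libraries. Lyz2 alone averaged 238.9 FPKM in DMD_KD and 286.2 FPKM in DMD_ND, a large part of that sum. The part of macrophages in these differences was not tested.

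Ptx3, Tnfaip6 and Has1, named for their small p and belonging to none of the lists, were lower without passing the test and were each highest in DMD_ND replicate 7. Ptx3 lay between 1.86 and 4.48 FPKM (median 2.38) in DMD_KD and between 5.699 and 44.5 FPKM (median 6.73) in DMD_ND. Ptx3, pentraxin 3, was apart between the diets, with a log2 fold change of -1.53 (SE 0.35, adjusted p = 0.14), and 1 library of DMD_ND held 44.5 FPKM where the others were at most 8.79. Tnfaip6 lay between 1.93 and 7.31 FPKM (median 4.83) in DMD_KD and between 10.2 and 68.2 FPKM (median 11.5) in DMD_ND. Tnfaip6, which crosslinks hyaluronan, was likewise apart with a log2 fold change of -1.58 (SE 0.37, adjusted p = 0.14), with DMD_ND replicate 7 at 68.2 and the others at most at 14.7. Has1, a hyaluronan synthase, had a log2 fold change of -1.23 (SE 0.28, adjusted p = 0.14) with overlap. Without DMD_ND replicate 7, Ptx3 was called, with a smaller log2 fold change of -1.11. Others on the lower side were Crabp2, a retinoic acid carrier (log2 -0.83, SE 0.17, adjusted p = 0.14), Btg3, an inhibitor of cell division (log2 -0.65, SE 0.15, adjusted p = 0.14), Cd28, a T cell co-receptor (log2 -0.47, SE 0.11, adjusted p = 0.14), and follistatin (Fst), which binds activin and myostatin (log2 -0.91, SE 0.22, adjusted p = 0.14). H3f3a, a histone H3.3 gene with near-identical copies and therefore an uncertain value, had a log2 fold change of -0.62 (SE 0.14, adjusted p = 0.14).

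Interferon response genes were lower on MCTKD as a list, with no member past the test. All 21 tested members had a negative log2 fold change (20 without DMD_KD replicate 3). Of them 13 were lower at an unadjusted p under 0.05 (7.60% of all genes were) and 3 did not overlap (0.635% of all genes). The list's median was -0.38 (-0.34 without DMD_KD replicate 3, -0.58 with TPM scaling). The median per library ran from -0.51 to -0.23 in DMD_KD and from -0.14 to 0.14 in DMD_ND. It was 1 of 4 lists among 51 whose library medians did not overlap between the diets, and the one on the lower side. The lists were chosen with earlier results of these data known, and the PPAR target list shares members with both oxidation lists. The count therefore does not test an excess over chance. Ifit2 lay between 0.823 and 2.43 FPKM (median 1.91) in DMD_KD and between 3.22 and 5.27 FPKM (median 3.87) in DMD_ND. Ifit2, which binds viral RNA, had a log2 fold change of -0.81 (SE 0.18, adjusted p = 0.14). Usp18 lay between 2.02 and 2.68 FPKM (median 2.36) in DMD_KD and between 3.17 and 4.33 FPKM (median 4.03) in DMD_ND. Usp18, which switches the interferon receptor off, had a log2 fold change of -0.53 (SE 0.11, adjusted p = 0.14). Ifit3, whose upstream element is printed above, lay between 0.826 and 1.69 FPKM (median 1.19) in DMD_KD and between 1.598 and 6.67 FPKM (median 2.54) in DMD_ND, with a log2 fold change of -0.81 (SE 0.23, adjusted p = 0.195), and Irf7, the factor that amplifies interferon production, between 2.06 and 6.46 FPKM (median 4.96) and between 5.17 and 10.8 FPKM (median 8.32), with a log2 fold change of -0.70 (SE 0.21, adjusted p = 0.204). WT_ND held between 0.833 and 2.63 FPKM for Ifit2 and between 3.81 and 6.33 FPKM for Irf7. Of 15 antigen presentation genes 3 were lower and none higher at an unadjusted p under 0.05, with a median of -0.11 (-0.36 with TPM scaling), among them the activator Nlrc5 (log2 -0.41, SE 0.14, adjusted p = 0.241) and the light chain B2m (log2 -0.34, SE 0.13, adjusted p = 0.263).

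Immediate early genes, which respond within minutes to stress, calcium or handling, had the most negative median of any list with 5 or more tested members. Of 19 members 8 were lower and none higher at an unadjusted p under 0.05, with a median of -0.60 (-0.70 without DMD_KD replicate 3, -0.86 with TPM scaling), and 1 did not overlap. DMD_ND varied widely here, with library medians from -0.54 to 0.66, high in replicates 5 and 7, against -0.97 to -0.23 in DMD_KD. Nr4a3 lay between 0.449 and 1.49 FPKM (median 1.08) in DMD_KD and between 2.54 and 4.82 FPKM (median 3.23) in DMD_ND. Nr4a3, an orphan nuclear receptor induced by exercise, was apart between the diets with a log2 fold change of -1.05 (SE 0.26, adjusted p = 0.14), and was called when the mutant libraries alone were fitted. Its WT_ND libraries lay between 1.404 and 8.002 FPKM. Myc, a growth regulator, had a log2 fold change of -0.95 (SE 0.26, adjusted p = 0.167), Maff -0.58 (SE 0.19, adjusted p = 0.23) and Fosl2, of the AP-1 factors, -0.55 (SE 0.19, adjusted p = 0.24). Among metallothionein and hypoxia genes 4 of 13 were lower and 1 higher, namely Epas1, a hypoxia-inducible factor, between 25.9 and 31.6 FPKM (median 28.3) in DMD_KD and between 19.6 and 23.6 FPKM (median 22.5) in DMD_ND without overlap (log2 0.36, SE 0.09, adjusted p = 0.14). Mt1, which binds zinc and copper, had a log2 fold change of -1.07 (SE 0.34, adjusted p = 0.226) and the vessel-widening peptide Adm -0.56 (SE 0.17, adjusted p = 0.21).

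**Figure D5:**
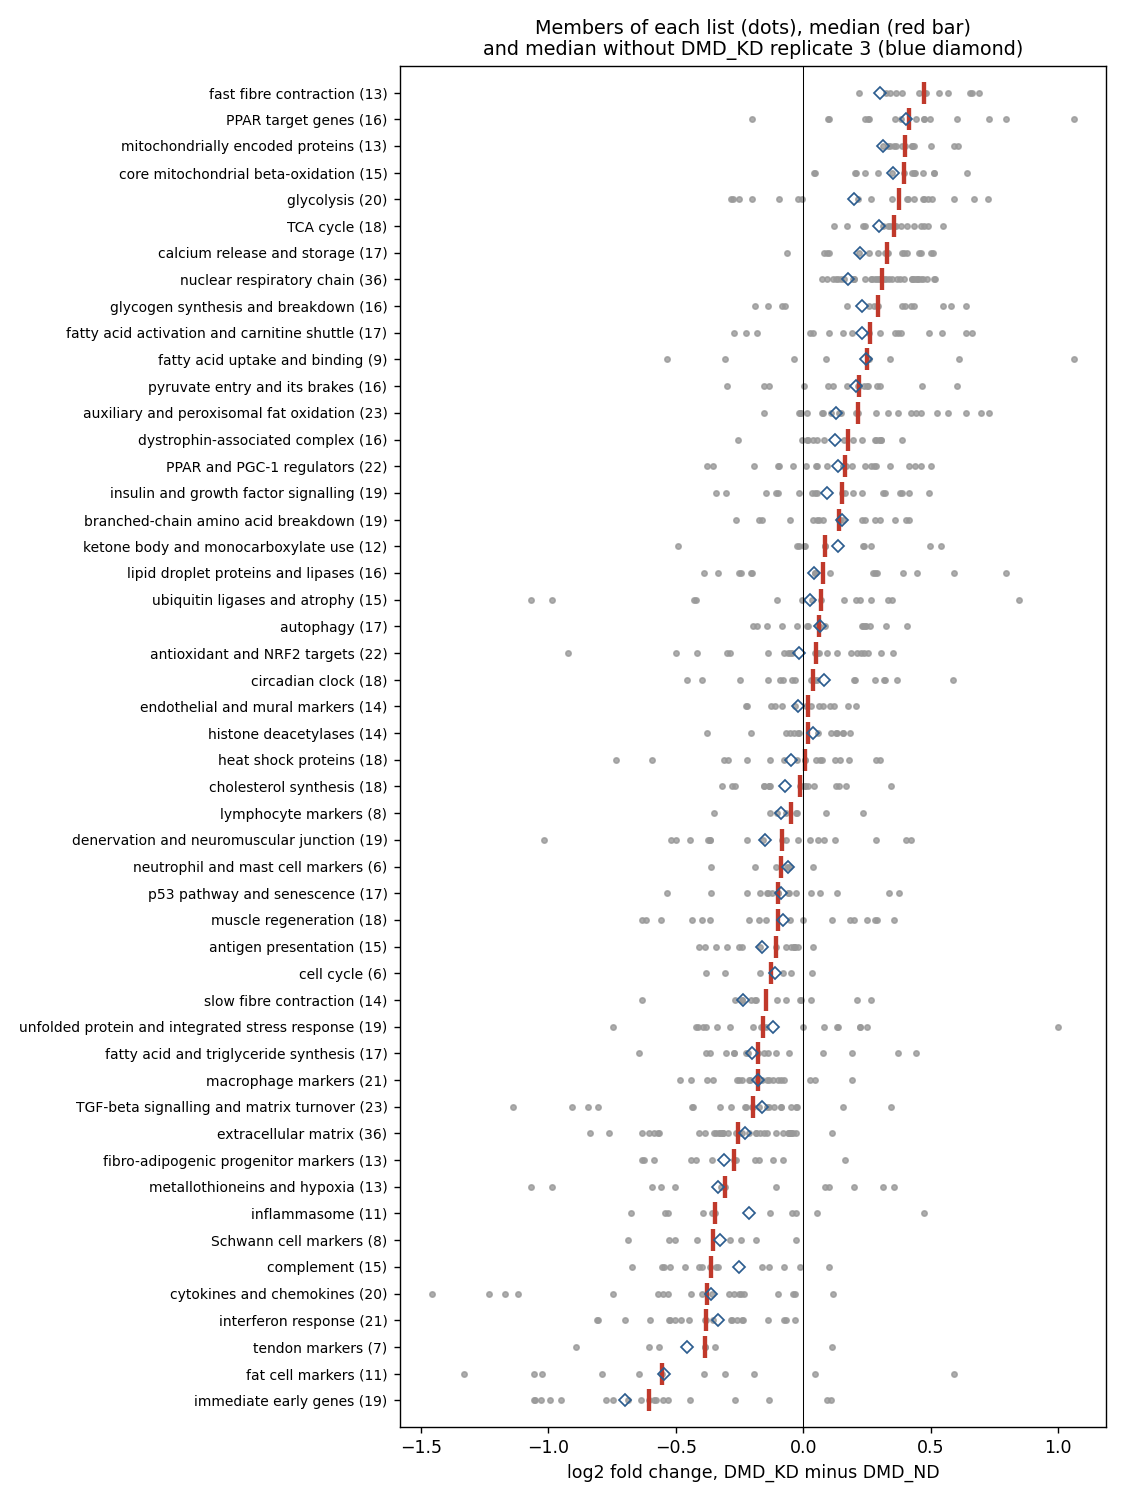
Log2 fold change of DMD_KD against DMD_ND for the tested members of each gene list with at least 5 (grey dots, the number in brackets), the list's median (red bar) and its median without DMD_KD replicate 3 (blue diamond), ordered by median. Fast fibre, PPAR target, mitochondrial and beta-oxidation lists are at the top (0.47 to 0.40) and immediate early genes at the bottom (-0.60).

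Matrix and connective tissue genes were mostly on the lower side, with no member past the test and the diets overlapping in every one. Of 36 matrix genes 35 were negative, where 48.9% of all genes were positive. Of them 8 were lower at an unadjusted p under 0.05 (7.60% of all genes were). The median was -0.26 (-0.23 without DMD_KD replicate 3, -0.51 with TPM scaling). The list's library medians overlapped, from -0.435 to 0.038 in DMD_KD and from -0.161 to 0.236 in DMD_ND. Periostin (Postn), made by activated fibroblasts, lay between 14.3 and 58.2 FPKM (median 48.99) in DMD_KD and between 49.2 and 90.6 FPKM (median 71.9) in DMD_ND, with a log2 fold change of -0.76, and -0.47 without DMD_KD replicate 3, its lowest library. Thbs2 had a log2 fold change of -0.57 (SE 0.18, adjusted p = 0.215) and the collagen VI chain Col6a3 -0.34 (SE 0.12, adjusted p = 0.241). In TGF-beta signalling and matrix turnover 5 of 23 were lower, among them the protease Mmp3 (log2 -0.81, SE 0.21, adjusted p = 0.14). The summed level of 15 markers of fibro-adipogenic progenitors was 909 to 1620 FPKM in DMD_KD and 1100 to 2290 in DMD_ND, with Ly6al at 0 in all mutant libraries, and its part in the matrix values was not tested. Of these markers 3 of 13 tested were lower, among them gelsolin (Gsn, log2 -0.62, SE 0.24, adjusted p = 0.268). Gsn alone averaged 542 FPKM in DMD_KD and 853 FPKM in DMD_ND, a large part of the summed level.

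Markers of other cell types did not pass the test. Of 21 macrophage markers 2 were lower and none higher at an unadjusted p under 0.05, among them Ms4a7 (log2 -0.44, SE 0.11, adjusted p = 0.14). That count is near the share of all genes (7.60%), and the list's median was -0.18 (-0.44 with TPM scaling). Of 8 lymphocyte, 6 neutrophil and mast cell and 14 endothelial and mural markers none had an unadjusted p under 0.05. Fat cell markers had a median of -0.56 (-0.825 with TPM scaling) over 11 tested genes, with 9 negative and 2 positive. At an unadjusted p under 0.05 stood 3 lower and 1 higher. The higher one was the droplet coat Plin4 (log2 0.59, SE 0.14, adjusted p = 0.14), which had the smallest p of the list. Resistin (Retn) lay between 1.62 and 5.87 FPKM (median 2.77) in DMD_KD and between 3.48 and 24.8 FPKM (median 7.66) in DMD_ND (log2 -1.33, SE 0.34, adjusted p = 0.14), Lep, leptin, had a log2 fold change of -0.79 (SE 0.28, adjusted p = 0.246), and adiponectin (Adipoq) lay between 8.35 and 44.05 FPKM (median 17.4) and between 21.1 and 92.99 FPKM (median 32.5) (log2 -1.06, SE 0.47, adjusted p = 0.328). The fat cell list was high in DMD_ND replicates 6 and 9 (library medians 0.57 and 0.97, the other DMD_ND libraries -0.48 to -0.14), against -1.16 to 0.17 in DMD_KD, and its summed level was 230 to 459 FPKM in DMD_KD and 293 to 814 in DMD_ND. A large part of this sum was Cfd (means of 104.8 FPKM in DMD_KD and 159.6 in DMD_ND) and Fabp4 (104.9 and 122.7 FPKM). Of 8 Schwann cell markers 3 were lower, among them the myelin gene Pmp22 (log2 -0.42, SE 0.13, adjusted p = 0.232), and of 7 tendon markers 3, among them keratocan (Kera, log2 -0.89, SE 0.23, adjusted p = 0.14). The summed level of 10 Schwann cell markers was 31.1 to 49.3 FPKM in DMD_KD and 40.8 to 85 in DMD_ND, and that of 8 tendon markers 77.8 to 139 and 96.4 to 192. A large part of each sum was 1 gene. It was Pmp22 for Schwann cells (means of 23.0 FPKM in DMD_KD and 31.1 in DMD_ND) and Thbs4 for tendon (67.3 and 86.8 FPKM). The part of these cells in the values was not tested.

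Genes of other responses of diseased muscle did not pass the test in either direction. Of 16 genes of the dystrophin-associated complex, which links the fibre's skeleton to the matrix, 1 was higher and none lower at an unadjusted p under 0.05. Among all genes 6.65% were higher and 7.60% lower. The list's median was 0.18, and -0.07 with TPM scaling. Of 15 complement genes 4 were lower and none higher, with a median of -0.36 (-0.25 without DMD_KD replicate 3, -0.63 with TPM scaling). Of 11 inflammasome genes 3 were lower, among them the receptor Il1r1 (log2 -0.68, SE 0.22, adjusted p = 0.232) and caspase 1 (Casp1, log2 -0.54, SE 0.18, adjusted p = 0.232), and 1 higher, the thioredoxin inhibitor Txnip (log2 0.47, SE 0.17, adjusted p = 0.256). Of 18 regeneration genes 3 were lower, among them the adhesion molecules Vcam1 (log2 -0.62, SE 0.18, adjusted p = 0.204) and Ncam1 (log2 -0.36, SE 0.12, adjusted p = 0.235). Of 19 genes of denervation and the neuromuscular junction 5 were lower, among them Gadd45a, a denervation and stress gene (log2 -1.02, SE 0.34, adjusted p = 0.232), and the receptor kinase Musk (log2 -0.52, SE 0.19, adjusted p = 0.256). Of 15 ubiquitin ligase and atrophy genes 2 were higher and 3 lower, with a median of 0.07, and -0.14 with TPM scaling. Fbxo32 lay between 22.2 and 34.3 FPKM (median 29.5) in DMD_KD and between 7.501 and 23.1 FPKM (median 18.4) in DMD_ND. Fbxo32, the ubiquitin ligase atrogin-1 that rises in fasting, was on the higher side with a log2 fold change of 0.85 (SE 0.24, adjusted p = 0.19), overlapping through 1 pair of values.

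Stress and clock genes did not pass the test. The counts that follow are at an unadjusted p under 0.05, where 6.65% of all genes were higher and 7.60% lower. Counts of 1 or 2 members are near these shares in lists of this size. Of 19 genes of the unfolded protein and integrated stress response 2 were higher, among them Chac1, which breaks down glutathione (log2 0.999, SE 0.29, adjusted p = 0.204, and 0.75 without DMD_KD replicate 3, its highest library), and 4 lower, among them the chaperone Hspa5 (log2 -0.41, SE 0.14, adjusted p = 0.235). Of 22 antioxidant genes 2 were higher and 4 lower (list median 0.05, and -0.21 with TPM scaling), among the lower the regulator Nfe2l2 (log2 -0.50, SE 0.14, adjusted p = 0.188) and heme oxygenase (Hmox1, log2 -0.92, SE 0.31, adjusted p = 0.235). Of 17 p53 and senescence genes 2 were higher and 1 lower at an unadjusted p under 0.05. The higher ones were Sesn1 (log2 0.37, SE 0.13, adjusted p = 0.249) and Phlda3 (log2 0.33, SE 0.12, adjusted p = 0.252). The lower one, Pmaip1, a target of p53, had a log2 fold change of -0.54 (SE 0.17, adjusted p = 0.221). Of 18 clock genes 2 were higher, Tef (log2 0.37, SE 0.12, adjusted p = 0.232) and Dbp (log2 0.59, SE 0.22, adjusted p = 0.263), and 2 lower, among them Arntl, which drives the clock's active arm (log2 -0.46, SE 0.19, adjusted p = 0.301). Of 14 genes in the histone deacetylase list, which joins Hdac genes with the separate sirtuin family, none reached an unadjusted p under 0.05 either way. The sirtuin Sirt1 had a log2 fold change of -0.38 (SE 0.19, adjusted p = 0.368).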

How the data were processed

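Poly-A RNA of rat tibialis anterior muscle was sequenced in 16 libraries and, per the submitters' processing notes, aligned to mRatBN7.2 with HISAT2 2.0.5 and counted with featureCounts 1.5.0-p3. No source used here gives the strand setting, annotation or read filters. The authors deposited FPKM per gene. The values are multiples of 1 read (100% whole within 0.05), which gave 17125084 to 28116085 assigned reads per library, and they are scaled by median-of-ratios size factors rather than by total reads. Replicate libraries all differed by more than sampling noise.

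Genes reaching 1 FPKM in 4 or more of 16 libraries were tested with limma 3.58.1 (R 4.3.3) on log2(FPKM + 1), with 1 mean per group over all 16 libraries, 13 residual degrees of freedom, the trend and robust options and Benjamini-Hochberg adjustment over 12119 genes. Fold changes on this scale understate those of low genes. Library measures were compared by exact two-sided permutation tests. The scripts were tested on simulated data. The members and gene lists were chosen with earlier results of these data known. Named genes are those called, up to 10 per direction of the smallest p with a symbol and at least 5 FPKM in the higher group, up to 4 of the smallest p per list, Dmd, and others marked as chosen after their values were seen; some genes are not reported here. Sequences came from RefSeq tables for GRCr8, matched by symbol. Alternatives were pseudocounts of 0.1 and 0.5, other filters, TPM scaling, voom on recovered reads, library weights, mutant libraries alone, a replicate block, exact permutation per gene, limma without the trend and robust options, and leaving out each library.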

Additional observations from a re-analysis of the deposited data

Results flagged for a closer look

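Among 357 sets of values of 1 group, each for 1 of 115 named genes or a library measure, 41 were marked. In a marked set the highest or lowest library stood farther from the rest than Dixon's 95% critical value. Normal and independent sets would give about 1 in 20, or 17.9. Most of these sets are FPKM without a log scale, of genes mostly named for small p, and they share libraries. The counts therefore do not test an excess over chance. Of the 41 marked sets, DMD_KD replicate 3 accounts for 17, DMD_ND replicate 7 for 9 and DMD_ND replicate 9 for 5.

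Over all tested genes, DMD_KD replicate 3 was the highest of its group in 4392 and the lowest in 4628. Among the marked sets it was the high library in each of its 17. The values were 25.03 FPKM for Mgll, 45.5 for Cpt2, 200.7 for Crat, 42.2 for Rxra, 40.2 for Slc16a3 and 198 for Pdk2. For respiratory genes they were 1312 FPKM for Atp5f1a, 2464 for Atp5f1b, 50110 for Mt-co1, 22820 for Mt-cyb and 3425 for Mt-nd5. They were also 3960 FPKM for Pygm, 321.5 for Ryr1, 42 for Pccb, 4.25 for Fdft1 and 29.4 for Chac1. Its 10 most abundant genes took 29.6% of reads.

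DMD_ND replicate 7 was the high library for genes of inflammation and early response. It held 15.3 FPKM of Csf1, 122 of Ccl2, 44.5 of Ptx3, 68.2 of Tnfaip6, 6.67 of Ifit3, 4.82 of Nr4a3, 11.3 of Maff, 14.7 of Fosl2 and 11.04 of Il1r1. DMD_ND replicate 9 was low for Eci2 (18.4), Rxra (11.7) and Gpam (7.16), and high for Cxcl13 (9.76) and Thbs2 (17.5).

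The others are single values. DMD_KD replicate 10 held 7.25 FPKM of Acot2, DMD_KD replicate 9 held 4.48 of Ptx3 and 6.08 of Adm, and DMD_ND replicate 6 held 12.35 of Cd28. DMD_ND replicate 5 had a size factor of 0.971, the lowest of its group. WT_ND replicate 4 held 0.409 FPKM of Cd28 and 0.833 of Ifit2, WT_ND replicate 3 held 14.3 of Adipoq and 56.5 of Dbp, and WT_ND replicate 9 held 1.12 of Nlrc5.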

How the results depend on the processing

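The number of genes called for diet was 1, Fabp3, in the reported analysis and under both other pseudocounts, both other filters, TPM scaling, voom on recovered reads and limma without the trend and robust options. It was 2 with the mutant libraries alone (Fabp3 and Nr4a3), 93 with library weights and 0 in an exact permutation test per gene (2147 genes at an unadjusted p under 0.05; limma called 1). Without DMD_KD replicate 3 these 3 counts were 5, 28 and 0 (1849). The 0 of the permutation test says nothing about the call, since the smallest p of 6 against 6 libraries, 0.00216, was too large to pass the adjustment over 12119 genes here. Leaving out each library gave 1 to 7 calls: 7 without DMD_KD replicate 9 (Fabp3, Cxcl13, Mlycd, Nudt7, Plin5, Slc25a42 and 1 gene without a symbol) and 2 without DMD_ND replicate 7. Without DMD_KD replicate 3 the range was 1 to 2, with 2 when DMD_KD replicate 9, DMD_ND replicate 7 or WT_ND replicate 4 was also left out.

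The groups share replicate numbers 3, 5, 7 and 9. Deviations from the group mean correlated at 0.09, 0.02, 0.02 and 0.23, and 1 of 4 libraries correlated best with its own number, so the numbers were not taken to pair the libraries. With a replicate block, limma called 0 genes (1249 at an unadjusted p under 0.05), and 0 without DMD_KD replicate 3 (1783).

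Fabp3 kept its direction in 27 of 27 alternatives and was called in 25 (not in the exact permutation test, which could call no gene, nor with the replicate block), with a log2 fold change of 0.80 to 1.12 and an adjusted p of 0.000164 to 0.28. Of 115 named genes followed through the alternatives, 110 kept their direction throughout. The others were Ucp3 (-0.010 with TPM scaling), Pdk4 (-0.17 with TPM scaling, -0.09 without DMD_KD replicate 7, -0.17 without DMD_KD replicate 10, up to 0.41 without DMD_KD replicate 3), Bdh1 (-0.062 with TPM scaling, -0.043 with the replicate block), Angptl4 (-0.037 to 0.47 over all single libraries left out, the lowest without DMD_ND replicate 5) and Oxct1 (0.13 with library weights, 0.14 with the replicate block, 0.10 without DMD_KD replicate 3, 0.07 without DMD_KD replicate 10, 0.03 without DMD_ND replicate 5, and -0.11 without DMD_KD replicate 5, the lowest). The difference in assigned reads between the diets ran from -408100 without DMD_KD replicate 1, where it turned, to 1744000 without DMD_KD replicate 10. The cause was not tested for any of these. The standard errors, 0.13 at the median gene, limit which differences could be called.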
